A study of Mus musculus with 24 samples.

Results

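The genes that break down amino acids and turn their nitrogen into urea were followed in the livers of mice fed phloridzin, a glucoside of apple that blocks sodium-glucose cotransport. The set was chosen by pathway, with no threshold on measured values, and lists 41 genes in 5 branches, which are the urea cycle (6 genes), aromatic amino acids (8), sulfur amino acids (8), branched-chain amino acids (4) and other amino acids (15). Of these, 38 had an array probe set annotated to that gene alone, and all 38 passed the filter on low signals and were tested, among 13118 genes tested in all. Sds, Sdsl and Gls2, all listed among the other amino acids, had no such probe set and were not analysed here. Male BALB/c mice, 6 weeks old, ate a purified diet without phloridzin (control) or with 0.1%, 0.5% or 1.0% phloridzin for 14 days, with free access to food. The labels describe 6 mice per diet housed 3 to a cage, and do not say which mice shared a cage. The sources used here do not give the hour at which each mouse was killed. The series title names blood glucose and hepatic gene expression as the subject of the study, and blood glucose was not analysed here.

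The liver is the main site of amino acid breakdown. Aminotransferases and glutamate dehydrogenase collect amino nitrogen, the urea cycle converts it to urea, and the remaining carbon skeletons feed glucose synthesis and the citric acid cycle. Many of these enzymes are known to be induced by glucagon, glucocorticoids, fasting or dietary protein and to be lowered by insulin, and several, such as tyrosine aminotransferase, vary over the day.

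The 24 arrays did not represent 24 livers, and this limits every value given here. Over 1463 bright genes, 13 pairs differed with an SD of only 0.0436 to 0.0577 on the log2 scale, and were read as repeat hybridisations of 1 RNA. Another 8 pairs, at 0.108 to 0.137, shared their pattern over the most variable genes and were joined too. All other pairs of the 276 were at 0.164 or more. Arrays of 1 RNA were averaged, which left 11 RNA samples: 4 control, 3 at 0.1%, 2 at 0.5% and 2 at 1.0%. A further RNA carried the labels of 2 diets on 4 arrays (0.1% replicates 1, 3 and 6 and 1.0% replicate 1) and entered no comparison. Nothing in the files ties the remaining samples to separate mice, so p-values measure only the spread between these RNA samples. Values by sample are listed for control replicates 1 and 3, 2 and 4, 5, and 6, for 0.1% replicates 2, 4 and 5, for 0.5% replicates 1, 2, 3 and 6, then 4 and 5, and for 1.0% replicates 2, 3, 5 and 6, then 4. Signals are given as log2 of the quantile-normalized intensity with a floor of 3, and a difference is a phloridzin diet minus control unless stated otherwise.

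Hepatocyte markers were bright in every sample, with a median control level of 13.47 over 6 measured markers, 1 of which, Tdo2, belongs to the set described here. Other cells of the liver were also read. Control means of single markers ran from 4.99 (Timd4) to 10.12 (Csf1r) for Kupffer cells, from 4.69 (Pecam1) to 9.26 (Clec4g) for sinusoidal endothelium and from 4.16 (Des) to 9.76 (Dcn) for stellate cells. Those of bile ducts (3.28 to 4.01), neutrophils (3.20 to 5.82), lymphocytes (3.69 to 4.13) and kidney tubules (3.45 to 4.76) were dimmer. The summed signal of the 6 hepatocyte markers spanned 58200 to 61900 at 0.1%, 61500 to 63000 at 0.5% and 62300 to 63400 at 1.0%, against 60900 to 64600 in control liver. In bulk liver RNA, fewer cells of a type and less RNA per cell cannot be told apart.

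Promoter windows are shown for 4 genes picked, after their values were seen, for their mean differences from control liver at 0.5% or 1.0% phloridzin (Tat, Bckdha, Hal and Uroc1), each running from 250 bases before to 50 bases after the start in RefSeq (GRCm38.p6), written 5′ to 3′ on the gene's strand. Capitals mark matches on either strand to any of 6 motifs searched, which were the TATA box TATAAA, the CCAAT box, the cyclic AMP response element half-site TGACG, the glucocorticoid half-site AGAACA, the D-box TTANGTAA read by clock output factors, and the GC box GGCGGG.
Tat (chr8:109990186-109990485, plus strand): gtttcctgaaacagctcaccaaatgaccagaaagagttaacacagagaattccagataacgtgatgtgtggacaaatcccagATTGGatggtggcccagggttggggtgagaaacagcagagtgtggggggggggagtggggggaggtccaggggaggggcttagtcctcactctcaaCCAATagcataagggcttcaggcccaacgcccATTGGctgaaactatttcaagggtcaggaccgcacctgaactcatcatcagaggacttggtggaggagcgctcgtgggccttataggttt
Bckdha (chr7:25658712-25659011, minus strand): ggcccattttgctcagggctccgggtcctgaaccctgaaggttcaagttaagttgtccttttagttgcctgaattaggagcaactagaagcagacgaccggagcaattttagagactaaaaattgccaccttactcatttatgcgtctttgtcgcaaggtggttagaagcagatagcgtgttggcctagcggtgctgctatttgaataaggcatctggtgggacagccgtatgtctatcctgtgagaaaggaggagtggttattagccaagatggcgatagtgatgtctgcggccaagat
Hal (chr10:93488518-93488817, plus strand): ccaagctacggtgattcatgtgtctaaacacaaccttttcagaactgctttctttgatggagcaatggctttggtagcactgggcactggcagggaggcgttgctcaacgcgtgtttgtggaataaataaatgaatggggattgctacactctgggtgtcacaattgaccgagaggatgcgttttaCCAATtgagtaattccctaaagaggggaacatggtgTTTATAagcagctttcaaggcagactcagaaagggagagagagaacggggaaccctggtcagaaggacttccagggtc
Uroc1 (chr6:90333039-90333338, plus strand): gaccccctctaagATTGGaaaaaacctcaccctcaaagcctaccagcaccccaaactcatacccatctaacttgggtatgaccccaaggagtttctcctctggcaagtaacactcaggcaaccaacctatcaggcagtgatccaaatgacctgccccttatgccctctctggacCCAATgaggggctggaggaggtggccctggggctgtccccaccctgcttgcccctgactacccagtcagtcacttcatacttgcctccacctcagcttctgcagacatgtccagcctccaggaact

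RefSeq gave windows for 30 of the 41 genes, 32 windows in all. Tat held 3 CCAAT matches, with first bases at positions -168 and -40 on the minus strand and -72 on the plus strand, counted from the start. Hal held a CCAAT match at -64 and a TATA match at -28 on the minus strand, Uroc1 held CCAAT matches at -237 on the minus strand and -76 on the plus strand, and the Bckdha window held none of the 6 motifs. CCAAT was found in 17 of the 32 windows (53.1%), against 37.4% of all 32851 windows of the same length, and the GC box in 15 (46.9%), against 35.3%. The TATA box was found in 15.6% of the windows of these genes and 13.6% of all windows, the cyclic AMP half-site in 15.6% and 20.8%, and the glucocorticoid half-site in 12.5% and 19.0%. No window of these genes held the D-box, which 2.32% of all windows held. These matches describe letters only and do not show that a factor binds there.

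The threshold for a call was an adjusted p of 0.05 (limma, Benjamini-Hochberg over all 13118 genes). None of the 38 genes was called in any comparison, so no difference given for them passed once the number of genes tested was allowed for. Called genes were few in all, at 0.0229% of the genes tested for 0.1% phloridzin, 0.00762% for 0.5% and 0.0152% for 1.0%, each against control. The lowest adjusted p among the 38 was 0.488 at 0.1%, 0.597 at 0.5% and 0.715 at 1.0%. The median SE of their log2 differences was 0.11 at 0.1% and 0.12 at 0.5% and 1.0%.

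With quantile scaling, the largest common displacement was at 0.5% phloridzin, where 32 of the 38 genes were lower than in control liver and 6 were higher, with a median difference of -0.12. Over all genes tested the median at this dose was 0.01 with 48.9% lower, and over the 1468 genes with a mean signal above 9 it was -0.02 with 55.2% lower. At 1.0%, 23 genes were lower and 15 higher, with a median of -0.05, beside -0.02 and 54.0% lower over all genes. At 0.1% the genes were split evenly, 19 higher and 19 lower, with a median of -0.01, beside 0.003 and 50.6% higher over all genes. These splits move with the scaling between arrays. With each array centred on its median they were 8 higher and 30 lower at 0.1%, 2 and 36 at 0.5%, and 5 and 33 at 1.0%, and that scaling put the median of all genes at -0.08, -0.09 and -0.20. With no scaling, 31, 37 and 37 of the 38 were lower at 0.1%, 0.5% and 1.0%, with the median of all genes at -0.16, -0.19 and -0.35. The order of the 2 higher doses turned as well, since the members' median was -0.22 at 0.5% and -0.26 at 1.0% with arrays centred, and -0.33 at 0.5% and -0.42 at 1.0% with no scaling. Without the RNA of 0.5% replicates 1, 2, 3 and 6 the median at 0.5% was -0.06, close to that at 1.0%. The 3 comparisons share the control samples.

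**Figure D1:**
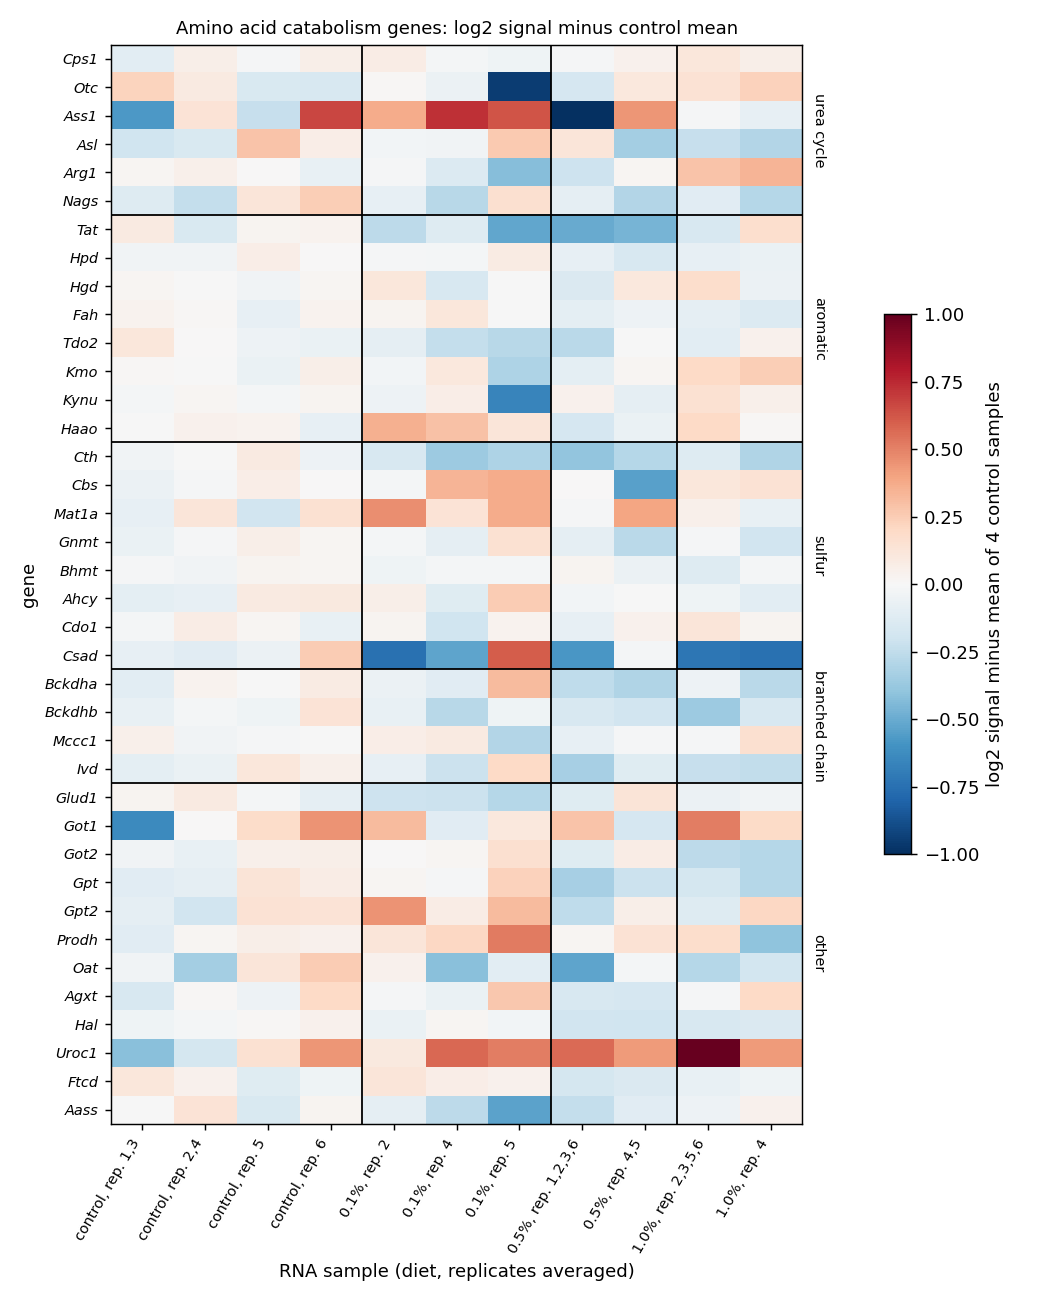
Log2 signal of the 38 measured genes (rows, by branch) in the 11 RNA samples (columns, by diet), as the difference from the mean of the 4 control samples; red is higher and blue lower than that mean, and the colours end at 1 in either direction. The column of 0.5% replicates 1, 2, 3 and 6 is mostly blue, Uroc1 is red in all 7 phloridzin samples, and Cth is blue in all 7.

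At an unadjusted p under 0.05, 3 of the 38 genes were higher and 5 lower at 0.1% phloridzin, where 4.48% and 3.99% of all genes were. At 0.5%, none was higher (2.52% of all genes) and 3 were lower (2.71%). At 1.0%, 2 were higher (2.48%) and 4 lower (4.02%). Counted by range, with every sample of a diet outside all 4 control samples, 2 genes stood above and 3 below at 0.1% (4.13% and 3.74% of all genes). At 0.5%, 10 of the 38 stood below (8.69% of all genes) and 0 above (9.16%), and at 1.0%, 10 stood below (12.4%) and 4 above (8.23%). Over all 7 phloridzin samples, Cth was the only one of the 38 below every control sample (0.427% of all genes), and 0 were above (0.389%).

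These genes varied less between samples than the median gene tested. The median SD within diets was 0.131 over the 38 genes, beside 0.263 over all genes tested, and the median range over the 11 samples was 0.54, beside 0.92. Their probe sets were also bright, with a median log2 signal of 10.73, beside 5.99 over all genes. The spread of other genes of such brightness was not computed, so the low spread is not shown to be particular to these genes. Ranges over the samples ran from 0.154 for Bhmt to 1.80 for Ass1, and exceeded 1 also for Uroc1 (1.56), Csad (1.36), Otc (1.17) and Got1 (1.15).

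**Figure D2:**
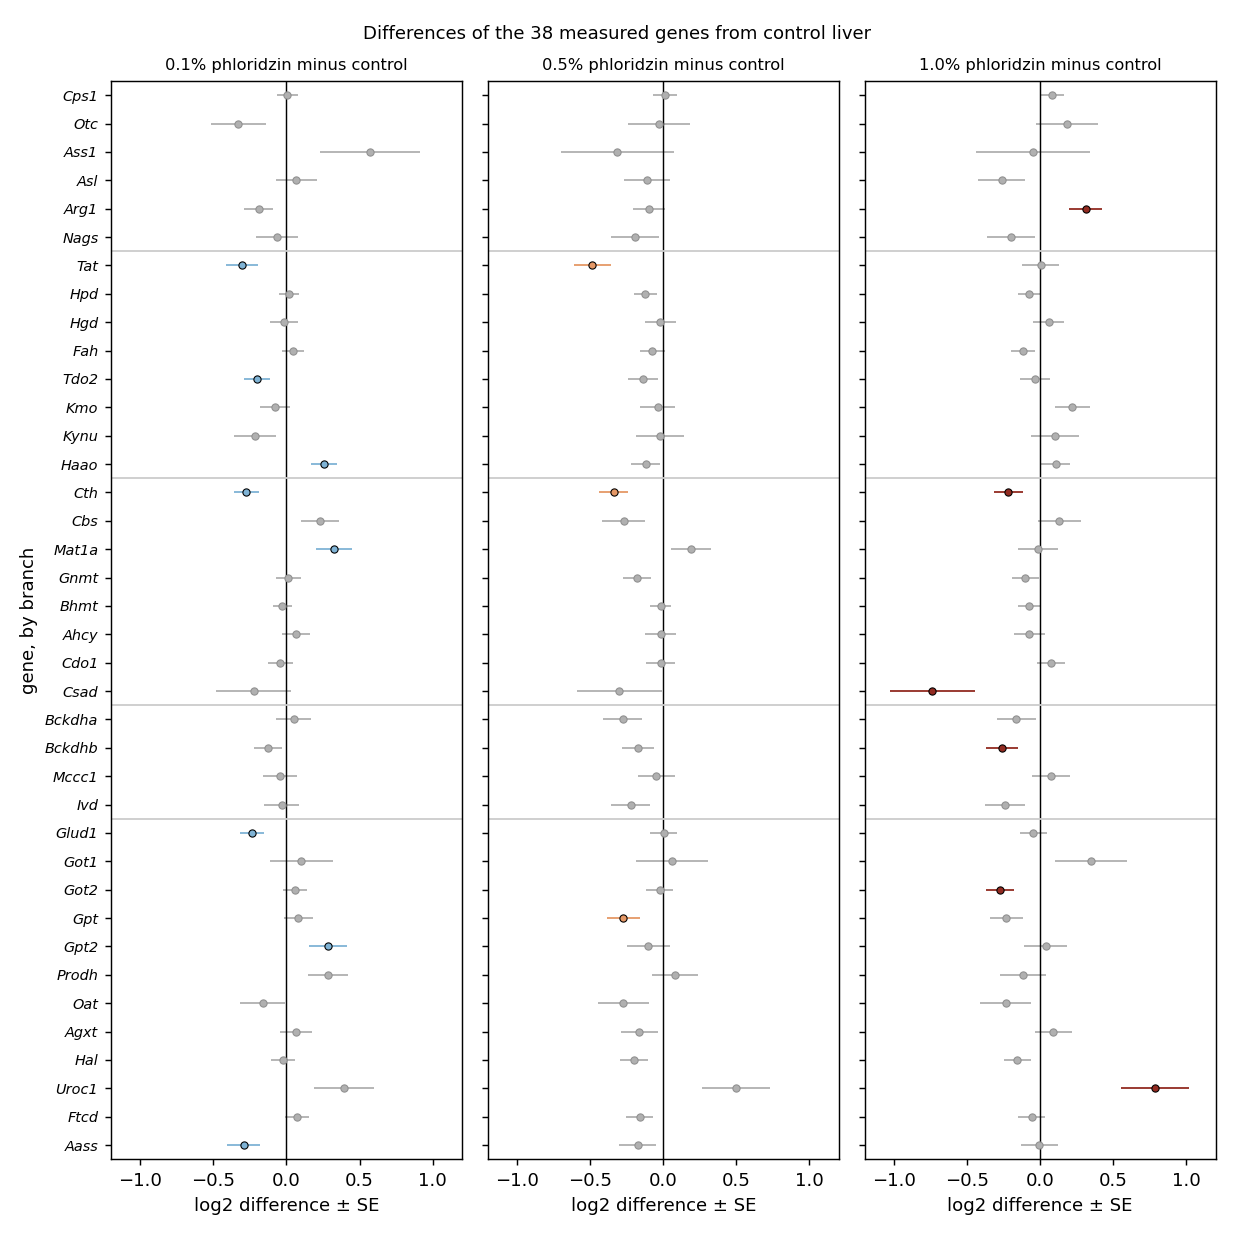
Log2 difference from control for each of the 38 genes (rows, by branch) at 0.1%, 0.5% and 1.0% phloridzin (panels), with bars of 1 SE from the limma fit; filled colours mark an unadjusted p under 0.05 and grey all others, and none passed after adjustment. At 0.5%, 32 of the 38 points lie left of the line at 0.

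The urea cycle genes were close to their control levels in most samples. Cps1, which joins ammonia and bicarbonate in the first step, had signals of 12.86, 13.02, 12.95 and 13.02 in control liver, 13.04, 12.95 and 12.92 at 0.1%, 12.95 and 13.00 at 0.5%, and 13.07 and 13.02 at 1.0%. The phloridzin samples lay within or just above the control range. The 95% interval of its difference from control ran from -0.15 to 0.16 at 0.1%, -0.16 to 0.19 at 0.5% and -0.09 to 0.26 at 1.0%.

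Arg1, the arginase that releases urea in the last step, was the urea cycle gene that stood furthest from control at 1.0%. Its signal was 12.65 and 12.71 at 1.0% phloridzin, against 12.38, 12.42, 12.37 and 12.29 in control liver. Both 1.0% samples were above all control samples, and the difference was 0.31 ± 0.11 (SE; limma, adjusted p = 0.747), or 1.24-fold. At the other doses Arg1 was not higher: it was 12.36, 12.23 and 11.94 at 0.1% and 12.16 and 12.38 at 0.5%, and the lowest value belonged to 0.1% replicate 5. The 1.0% difference was 0.29 with arrays divided by their 75th percentile and 0.14 with arrays centred on their medians, but -0.02 with no scaling. It was -0.03 when the RNA with the labels of 2 diets was kept under both, since Arg1 was 11.65 in that RNA.

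Otc, which makes citrulline, spanned 10.85 to 11.81 at 0.1%, 11.63 to 11.90 at 0.5% and 11.94 to 12.02 at 1.0%, against 11.64 to 12.01 in control liver. Its value of 10.85 in 0.1% replicate 5 stood far below the other 2 samples of that diet, and 2 further Otc probe sets differed from control by -0.03 and -0.15 at 0.1%, where the probe set used differed by -0.33. Asl, which splits argininosuccinate into arginine and fumarate, was 9.58 and 9.52 at 1.0%, against 9.61 to 10.10 in control liver, so both samples lay just below the control range. Nags, which makes the activator of the first step, averaged 8.27 ± 0.22 at 0.1% (SD, n = 3), 8.14 ± 0.14 at 0.5% and 8.14 ± 0.13 at 1.0% (n = 2 each), against 8.34 ± 0.22 in control liver (n = 4). Ass1, which makes argininosuccinate, was read only by a dim probe set, at 3.72 to 5.51 over all samples. A second Ass1 probe set is annotated to another gene as well and was left out by the rule of 1 gene per probe set, so no difference of Ass1 is described, although it is counted among the 38 genes and in the urea cycle means.

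Among the genes of aromatic amino acid breakdown, Tat had the lowest p at 0.5%, and all 8 genes of the branch were below control there, by a median of 0.10. Tat encodes tyrosine aminotransferase, the first and rate-limiting step of tyrosine breakdown. Its signal was 11.26, 11.02, 11.20 and 11.21 in control liver, 10.91, 11.04 and 10.65 at 0.1%, 10.66 and 10.71 at 0.5%, and 11.01 and 11.34 at 1.0%. Both 0.5% samples were below every control sample, those at 0.1% overlapped the control range by 1 sample, and those at 1.0% spanned it.

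The Tat difference was -0.31 ± 0.11 at 0.1% (limma, adjusted p = 0.512), -0.49 ± 0.13 at 0.5% (adjusted p = 0.597) and 0.005 ± 0.13 at 1.0% (adjusted p = 0.997). At 0.5% this is a signal 1.40-fold lower, with a 95% interval from -0.76 to -0.22. Leaving out each sample in turn gave -0.54 to -0.46 at 0.5% and -0.39 to -0.20 at 0.1%, so no single sample set the size at 0.5%. The sign at 1.0% depended on the processing and is not given as a direction.

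The genes that follow Tat on the tyrosine route were near control. Hpd, which oxidises hydroxyphenylpyruvate, was 13.05, 13.04 and 13.14 at 0.1%, 12.98 and 12.90 at 0.5% and 12.98 and 12.99 at 1.0%, against 13.02, 13.03, 13.13 and 13.06 in control liver. The samples of the 2 higher doses were below the control range by less than 0.13. Hgd, the homogentisate dioxygenase, ranged from 11.77 to 12.11 over the phloridzin samples and 11.90 to 11.96 over control samples. Fah, which performs the last step, was 11.77 and 11.72 at 1.0%, against 11.78 to 11.90 in control liver.

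On the tryptophan route, Tdo2 and Haao stood apart at the lowest dose. Tdo2, the dioxygenase that opens the tryptophan ring, was 12.83, 12.68 and 12.64 at 0.1%, against 13.04, 12.92, 12.87 and 12.85 in control liver, with no overlap. The difference was -0.20 ± 0.09 (limma, adjusted p = 0.569), and the other 2 Tdo2 probe sets gave -0.30 and -0.33. Tdo2 was 12.65 and 12.91 at 0.5% and 12.81 and 12.96 at 1.0%, which overlap control.

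Haao, the hydroxyanthranilate dioxygenase, was 11.23, 11.16 and 10.99 at 0.1%, against 10.87, 10.92, 10.91 and 10.79 in control liver, again with no overlap. The difference was 0.26 ± 0.09 (limma, adjusted p = 0.508), but 0.16 with arrays centred on their medians and 0.08 with no scaling. Haao was 10.70 and 10.80 at 0.5% and 11.07 and 10.89 at 1.0%, of which the first was below and the third above the control range. Kmo, which hydroxylates kynurenine, was 10.09 and 10.14 at 1.0%, above all control samples (9.83 to 9.96), with a difference of 0.22 ± 0.12 (limma, adjusted p = 0.772). Kynu, which cleaves kynurenine, was 9.54 and 9.44 at 1.0%, against 9.36 to 9.41 in control liver, and its lowest value, 8.73, was in 0.1% replicate 5.

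In the sulfur branch, Cth was below control at every dose. Cth encodes cystathionine gamma-lyase, which releases cysteine from cystathionine and is also a source of hydrogen sulfide. Its signal was 11.43, 11.46, 11.55 and 11.41 in control liver, 11.30, 11.10 and 11.16 at 0.1%, 11.06 and 11.17 at 0.5%, and 11.33 and 11.16 at 1.0%. All 7 phloridzin samples were below all 4 control samples, and the doses overlapped each other.

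The Cth difference was -0.28 ± 0.09 at 0.1% (limma, adjusted p = 0.488), -0.34 ± 0.10 at 0.5% (adjusted p = 0.617) and -0.22 ± 0.10 at 1.0% (adjusted p = 0.761). These are signals 1.21-fold, 1.27-fold and 1.16-fold lower. The direction held under all 26 settings run for each dose, but many of these could not have turned it. Every phloridzin sample was below every control sample, so leaving out any sample could not change the sign. A higher floor, no filter, other probe set choices and other variance models left the difference at -0.28 at 0.1%. The direction was thus tested mainly by the scaling and by which arrays were counted. The range was -0.43 to -0.23 at 0.1%, -0.62 to -0.29 at 0.5% and -0.63 to -0.13 at 1.0%. The smallest value at 1.0% is that without replicate 4. The 3 Cth differences share the control samples, and only 1 probe set reads Cth.

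Cbs, which makes cystathionine from homocysteine, did not follow Cth. It was 10.15, 10.51 and 10.54 at 0.1%, 10.18 and 9.63 at 0.5% and 10.29 and 10.31 at 1.0%, against 10.12 to 10.24 in control liver. The 2 samples at 0.5% lay far apart, so its mean difference of -0.27 there comes from replicates 4 and 5. Mat1a, which makes S-adenosylmethionine, was 11.59, 11.27 and 11.50 at 0.1%, against 11.05, 11.25, 10.94 and 11.28 in control liver, with a difference of 0.32 ± 0.12 (limma, adjusted p = 0.525) and 1 sample within the control range. With no scaling the Mat1a difference was 0.13, and with all 24 arrays 0.195. Mat1a was 11.11 and 11.52 at 0.5% and 11.18 and 11.05 at 1.0%.

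Csad, the decarboxylase that leads from cysteine to taurine, had the largest negative difference of the set at 1.0%. It was 7.49 and 7.47 at 1.0%, against 8.14, 8.11, 8.16 and 8.47 in control liver, a difference of -0.74 ± 0.29 (limma, adjusted p = 0.758) or 1.67-fold lower. The values at 0.1% were 7.47, 7.69 and 8.83 and those at 0.5% were 7.64 and 8.20, so each of these diets held a sample well below the control range and another within or above it.

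Of the remaining genes of the sulfur branch, all but Gnmt held close to control. Bhmt, which remethylates homocysteine with betaine, was 13.63, 13.61, 13.67 and 13.66 in control liver, 13.60, 13.62 and 13.62 at 0.1%, 13.67 and 13.58 at 0.5%, and 13.51 and 13.62 at 1.0%. Its 95% interval at 1.0% ran from -0.23 to 0.09. Gnmt, the methyltransferase that disposes of excess methyl groups, was 12.84 and 12.66 at 0.5%. Both were below the control range of 12.87 to 12.99, the second clearly so, with a mean difference of -0.18. Ahcy, which hydrolyses S-adenosylhomocysteine, averaged 12.48 at 0.1%, 12.40 at 0.5% and 12.34 at 1.0%, against 12.41 in control liver, and Cdo1, the cysteine dioxygenase, averaged 11.61, 11.63 and 11.73 at the same doses, against 11.65 in control liver.

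**Figure D3:**
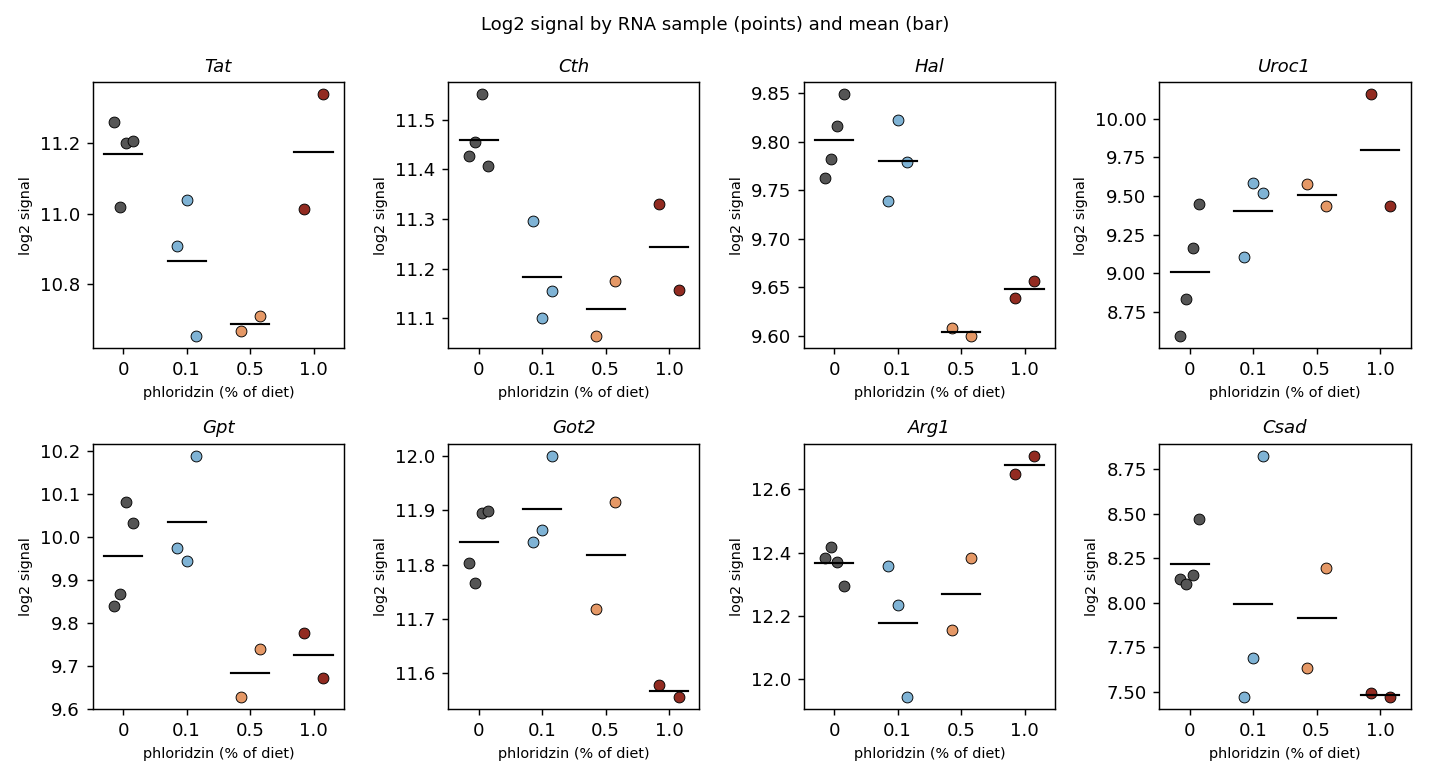
Log2 signal (vertical axes, each with its own range) of Tat, Cth, Hal, Uroc1, Gpt, Got2, Arg1 and Csad in each RNA sample (points) by phloridzin content of the diet in percent (horizontal axis), with bars at the mean of each diet (n = 4, 3, 2 and 2). The mean of Tat is lowest at 0.5%, all 7 phloridzin points of Cth lie below the control points, and Arg1 is above control only at 1.0%.

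In the branched-chain branch, all 4 genes were below control at 0.5%, by a median of 0.20, and 3 of the 4 were below at 1.0%. The mean of the branch was -0.21 and -0.15 in the 0.5% samples and -0.17 and -0.13 in the 1.0% samples, against -0.06 to 0.07 in control samples. At 0.1% it was -0.04, -0.13 and 0.04. Bckdhb, the beta chain of the decarboxylase of the branched-chain ketoacid dehydrogenase, was 10.44, 10.49, 10.46 and 10.64 in control liver, 10.44, 10.23 and 10.47 at 0.1%, 10.35 and 10.32 at 0.5%, and 10.14 and 10.35 at 1.0%. The samples of the 2 higher doses were all below control, and the difference at 1.0% was -0.26 ± 0.11 (limma, adjusted p = 0.761). Without the RNA of 1.0% replicates 2, 3, 5 and 6 it was -0.16, and it was -0.42 with arrays divided by their 75th percentile, -0.57 with arrays centred and -0.73 with no scaling.

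Bckdha, the alpha chain of the same enzyme, was 8.90 and 8.86 at 0.5%, against 9.05 to 9.24 in control liver, and 9.10 and 8.89 at 1.0%, where 1 sample was within the control range. Ivd, the isovaleryl-CoA dehydrogenase of leucine breakdown, was 8.42 and 8.63 at 0.5% and 8.51 and 8.50 at 1.0%, against 8.65, 8.68, 8.86 and 8.80 in control liver. The second Ivd probe set differed from control by -0.09 at 0.5% and by 0.18 at 1.0%, opposite in sign to the first at 1.0%. Mccc1, a subunit of methylcrotonyl-CoA carboxylase, averaged 8.64 at 0.1%, 8.64 at 0.5% and 8.76 at 1.0%, against 8.68 in control liver.

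Among the aminotransferases and glutamate dehydrogenase, the probe sets used put Gpt below control at both higher doses, Got2 at 1.0% and Glud1 at 0.1%. Glud1, which frees ammonia from glutamate, was 12.19, 12.26, 12.15 and 12.08 in control liver, 11.96, 11.95 and 11.88 at 0.1%, 12.05 and 12.30 at 0.5%, and 12.11 and 12.13 at 1.0%. The 0.1% samples were below all control samples, by 0.24 ± 0.08 on average (limma, adjusted p = 0.508), and a second Glud1 probe set gave -0.18. At 0.5% and 1.0% Glud1 overlapped control.

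Gpt, the cytosolic alanine aminotransferase, was 9.63 and 9.74 at 0.5%, against 9.84, 9.87, 10.08 and 10.03 in control liver, a difference of -0.27 ± 0.11 (limma, adjusted p = 0.897). It was 9.97, 9.94 and 10.19 at 0.1% and 9.78 and 9.67 at 1.0%, so all samples of the 2 higher doses were below control. Another Gpt probe set, with a mean signal of 6.46, gave -0.24 at 0.5% and 0.63 at 1.0%, and the second value is opposite in sign to that of the probe set used. Gpt2, the mitochondrial form, was 10.71, 10.34 and 10.58 at 0.1%, against 10.18, 10.07, 10.41 and 10.40 in control liver, a difference of 0.28 ± 0.13 (limma, adjusted p = 0.588). With arrays centred the difference was 0.16 and with no scaling 0.07. The second Gpt2 sample overlapped control, and the other 3 Gpt2 probe sets gave 0.01, 0.09 and 0.17.

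Got2, the mitochondrial aspartate aminotransferase, was 11.58 and 11.56 at 1.0%, against 11.80, 11.77, 11.89 and 11.90 in control liver, a difference of -0.27 ± 0.09 (limma, adjusted p = 0.747). It was 11.84, 11.86 and 12.00 at 0.1% and 11.72 and 11.92 at 0.5%, where the 2 samples lay just below and just above the control range. A second bright Got2 probe set, at 9.64, gave -0.08 at 1.0%, and the mean over all 4 Got2 probe sets gave 0.01. Got1, the cytosolic form, varied widely, at 8.18 to 8.61 at 0.1%, 8.13 to 8.58 at 0.5% and 8.48 to 8.81 at 1.0%, against 7.66 to 8.74 in control liver.

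In histidine breakdown, Hal and Uroc1 differed from control in opposite directions. Hal, the ammonia-lyase that starts the route, was 9.61 and 9.60 at 0.5% and 9.64 and 9.66 at 1.0%, against 9.76, 9.78, 9.82 and 9.85 in control liver, and 9.74, 9.82 and 9.78 at 0.1%. The samples of the 2 higher doses were all below control, by 0.20 ± 0.09 at 0.5% (limma, adjusted p = 0.953) and 0.16 ± 0.09 at 1.0% (adjusted p = 0.783).

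Uroc1, the urocanase that takes the next step, was 8.60, 8.83, 9.17 and 9.45 in control liver, 9.11, 9.58 and 9.52 at 0.1%, 9.58 and 9.44 at 0.5%, and 10.16 and 9.44 at 1.0%. The control samples themselves span 0.86, and every diet overlapped them. The difference at 1.0% was 0.78 ± 0.23 (limma, adjusted p = 0.715) and at 0.5% it was 0.50 ± 0.23 (adjusted p = 0.953). Without the RNA of 1.0% replicates 2, 3, 5 and 6 the difference at 1.0% was 0.42, and without replicate 4 it was 1.15. It was 0.48 with arrays centred, 0.32 with no scaling and 0.15 with the mean of its probe sets. The only other Uroc1 probe set is dim, at 4.78, and gave -0.49 at 1.0%. Ftcd, which ends the histidine route, was 10.77 and 10.80 at 0.5%, just below the control range of 10.83 to 11.06.

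The genes of proline, ornithine, glyoxylate and lysine handling lay on both sides of control. Aass, the first enzyme of lysine breakdown, was 10.40, 10.23 and 9.95 at 0.1%, against 10.48, 10.62, 10.34 and 10.51 in control liver, a difference of -0.29 ± 0.11 (limma, adjusted p = 0.525). Without 0.1% replicate 5, the lowest of these samples, it was -0.17. Aass was 10.25 and 10.37 at 0.5% and 10.43 and 10.53 at 1.0%. Prodh, the proline dehydrogenase, was 9.26, 9.35 and 9.66 at 0.1%, above all control samples (9.02 to 9.20), with a difference of 0.28 ± 0.14 (limma, adjusted p = 0.602). Oat, the ornithine aminotransferase of hepatocytes around the central vein, averaged 10.98 at 0.1%, 10.87 at 0.5% and 10.91 at 1.0%, against 11.14 in control liver, and Agxt, which detoxifies glyoxylate, averaged 10.60, 10.38 and 10.63 at the same doses, against 10.54 in control liver.

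Averaged over all 38 genes, the 0.5% samples were at -0.16 (replicates 1, 2, 3 and 6) and -0.06 (replicates 4 and 5) relative to the control mean, against -0.07 to 0.08 in control samples, so 1 of the 2 lay outside the control range. The 0.1% samples were at 0.02, -0.03 and 0.02 and the 1.0% samples at -0.01 and -0.05, all within it. By branch, the aromatic genes averaged 0.007, 0.002 and -0.20 at 0.1%, -0.17 and -0.09 at 0.5%, and 0.04 and 0.03 at 1.0%, against -0.02 to 0.03 in control samples. The lowest aromatic value thus belonged to 0.1% replicate 5, and both 0.5% samples were below control. The sulfur genes averaged -0.06, -0.105 and 0.18 at 0.1%, -0.15 and -0.09 at 0.5%, and -0.09 and -0.16 at 1.0%, against -0.06 to 0.05 in control samples, so the 0.1% samples lay on both sides of control. Csad weighs heavily in these sulfur means. It was 7.49 and 7.47 at 1.0% and 8.83 in 0.1% replicate 5, against a control mean of 8.22, and means without it were not computed. The urea cycle genes averaged -0.24 and -0.005 at 0.5%, against -0.13 to 0.14 in control samples, with all samples of the other doses within that range, and each of these means includes the dim Ass1.

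**Figure D4:**
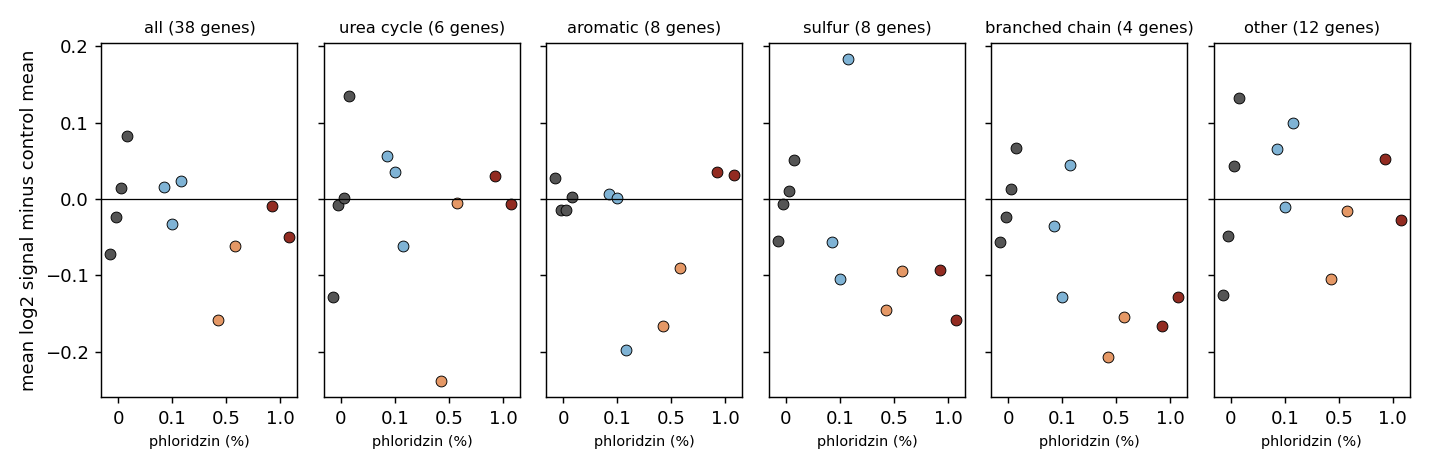
Mean log2 signal of all 38 genes and of each branch (panels) in each RNA sample (points), as the difference from the control mean (vertical axis), by phloridzin content of the diet in percent (horizontal axis). The branched-chain points of 0.5% and 1.0% lie between -0.21 and -0.13, below the control points, while the urea cycle and other genes overlap control at every dose.

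Samples also stood outside the control range in other gene groups, given here as means relative to the control mean. Over 9 clock output genes (Dbp, Per2, Nr1d1 and others) the 0.5% RNA of replicates 1, 2, 3 and 6 was at -1.48 while 0.1% replicates 2 and 5 were at 1.10 and 0.48, where control samples spanned -0.41 to 0.35. Not every clock gene followed these means. Per2 was 5.29 in 0.1% replicate 5, below all control samples (5.94 to 6.56). Hlf and the dim Per1 were above their control means in that 0.5% RNA. Over 12 acute phase genes, which hepatocytes raise in inflammation, the 0.5% samples were at 1.64 and 0.47 and the 1.0% RNA of replicates 2, 3, 5 and 6 at 0.61, against -0.12 to 0.20 in control samples. These genes did not move equally. Saa2 was 13.00 and 10.15 at 0.5%, against a control mean of 7.90, and Orm2 10.65 and 7.38, against 6.025. Crp (11.53 in both) and Saa3 (6.45 and 6.24) were below their control means of 11.76 and 6.59 in 0.5% replicates 4 and 5 and that 1.0% RNA. Itih4 was also below its control mean in that 1.0% RNA. The 5 measured markers of periportal hepatocytes, 2 of which (Arg1 and Hal) belong to the set described here, averaged -0.27 and -0.11 at 0.5%, against -0.05 to 0.12 in control samples, and their lowest mean, -0.30, was that of 0.1% replicate 5. The 7 pericentral markers, among them Oat of the same set, averaged -0.20 and -0.14 at 0.5% and -0.17 and -0.25 at 1.0%. Control samples spanned -0.125 to 0.08, so the means of both zones were below control at 0.5%. The pericentral markers did not move together. In 0.5% replicates 4 and 5, the dim Axin2 was 4.51, against a control mean of 5.68, and Cyp1a2 was 11.04, against 11.29. Oat and Lgr5 were slightly below their control means there, and Glul, Cyp2e1 and Slc1a2 above. Axin2 was 4.65 and 5.025 at 1.0%. The 3 dim bile duct markers averaged 0.62 to 0.80 in 5 of the 7 phloridzin samples, against -0.25 to 0.21 in control samples, and the 7 neutrophil markers 0.88 in 0.5% replicates 4 and 5, against -0.32 to 0.22.

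The 3′ minus 5′ signal, a sign of RNA degradation or short copies, differed as well. For Gapdh it was -0.27, -0.05 and -0.26 at 0.1%, -0.18 in both samples at 0.5%, and -0.31 and -0.35 at 1.0%, against -0.37 to -0.28 in control samples, so every sample of the 2 lower doses was above control. For actin it was 2.32 in 0.1% replicate 4 and 1.78 in 0.5% replicates 4 and 5, against 1.31 to 1.54 in control samples. The part of these shifts in the amino acid genes was not tested. Without the 0.5% RNA of replicates 1, 2, 3 and 6, 25 of the 38 genes were lower at 0.5% and 13 higher, with a median of -0.06, and Tat differed from control by -0.46 and Cth by -0.29. Without replicates 4 and 5 instead, 31 were lower and 7 higher, with a median of -0.13.

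At 0.1%, replicate 4 had low signals of Kupffer cell genes (-0.41 over 11 markers) and sinusoidal endothelial genes (-0.51 over 8), where control samples spanned -0.05 to 0.11 and -0.08 to 0.05. Replicate 5 of the same diet held the lowest value of the 3 for Otc, Arg1, Kynu, Tat and Aass. It also had the lowest mean of the hepatocyte markers, -0.25, against -0.09 to 0.08 in control samples, beside its low periportal mean. The hepatocyte markers were split in this sample. Apob was 11.12, Fgb 13.10 and Tdo2 12.64, against control means of 12.12, 13.47 and 12.92. Alb, Ttr and Apoa1 were above their control means. Without replicate 5 the Tat difference at 0.1% was -0.20, and that of Cth ranged from -0.33 to -0.23 over all samples left out in turn.

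The doses were also compared with each other. Between 1.0% and 0.1% phloridzin, Arg1 had the lowest p of the 38 genes, at 12.65 and 12.71 against 12.36, 12.23 and 11.94, a difference of 0.50 ± 0.12 (limma, adjusted p = 0.182). Of all genes, 0.0152% were called in that comparison. Between 1.0% and 0.5%, Tat was higher by 0.49 ± 0.15 (limma, adjusted p = 0.989), with both 1.0% samples (11.01 and 11.34) above both 0.5% samples (10.66 and 10.71), and 0% of all genes were called. Between 0.5% and 0.1%, Haao was lower by 0.38 ± 0.11 (limma, adjusted p = 0.339) and Tat by 0.18 ± 0.13 (adjusted p = 0.637), again with 0% of all genes called. Between 1.0% and 0.1%, Tat was higher by 0.31 ± 0.13 (limma, adjusted p = 0.375). For Cth, the differences between doses were -0.06 ± 0.10 (0.5% minus 0.1%, limma adjusted p = 0.856), 0.06 ± 0.10 (1.0% minus 0.1%, adjusted p = 0.852) and 0.12 ± 0.11 (1.0% minus 0.5%, adjusted p = 1), with 95% intervals from -0.28 to 0.16, -0.16 to 0.28 and -0.12 to 0.37.

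Fitted as a straight line over the 4 phloridzin contents, 14 genes had a positive and 24 a negative slope, with a median of -0.09 per 1% phloridzin, beside -0.02 and 53.5% negative over all genes. None of the 38 was called, nor was any other gene (0%). At an unadjusted p under 0.05, 2 slopes were positive (3.4% of all genes) and 5 negative (5.43%). The positive ones were Uroc1 at 0.69 ± 0.22 (limma, adjusted p = 0.464) and Arg1 at 0.33 ± 0.13 (adjusted p = 0.516). The negative ones were Got2 at -0.28 ± 0.09 (limma, adjusted p = 0.464), Gpt at -0.31 ± 0.12 (adjusted p = 0.502), Csad at -0.66 ± 0.26 (adjusted p = 0.516), Bckdhb at -0.23 ± 0.10 (adjusted p = 0.544) and Ivd at -0.26 ± 0.12 (adjusted p = 0.564). Tat had a slope of -0.003 ± 0.17 (limma, adjusted p = 0.995) and Cth of -0.18 ± 0.12 (adjusted p = 0.661), and neither was ordered by dose. Without the RNA of 1.0% replicates 2, 3, 5 and 6, the slope of Uroc1 was 0.44 and that of Cth -0.31. With arrays centred, the slopes of Uroc1 and Arg1 were 0.40 and 0.165, and those of Got2, Gpt, Bckdhb and Ivd lay between -0.60 and -0.50.

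Other genes of the same pathways, 42 of 51 listed, were measured as well, and 0 were called by limma. At an unadjusted p under 0.05, 3 were higher and 3 lower at 0.1% (4.48% and 3.99% of all genes). At 0.5% these were 0 and 3 (2.52% and 2.71%), and at 1.0%, 1 and 2 (2.48% and 4.02%). At 0.5%, 29 were lower and 13 higher with a median of -0.10, beside 48.9% of all genes lower. At 0.1% the split was 28 and 14 with -0.06 (49.4% of all genes lower), and at 1.0%, 21 and 21 with -0.003 (54.0%). At 0.5% the lowest p belonged to Afmid, the formamidase of the kynurenine route, at 7.41 and 7.50 against 7.83, 7.75, 8.24 and 8.31 in control liver, a difference of -0.58 ± 0.20 (limma, adjusted p = 0.716). Mccc2, the partner subunit of Mccc1, followed at -0.42 ± 0.17 (limma, adjusted p = 0.881). At 0.1%, Ppm1k, the phosphatase that activates the branched-chain dehydrogenase, was lower by 0.49 ± 0.17 (limma, adjusted p = 0.512), and Slc25a13, the mitochondrial aspartate-glutamate carrier, by 0.33 ± 0.12 (adjusted p = 0.512). At 1.0%, Aspg, an asparaginase, was higher by 0.44 ± 0.15 (limma, adjusted p = 0.747), and Hibadh, a dehydrogenase of valine breakdown, was lower by 0.28 ± 0.10 (adjusted p = 0.747).

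Of 10 transcription factors and receptors known to control these enzymes, 0 were called by limma. At an unadjusted p under 0.05, 1 was higher at 0.1% (4.48% of all genes), 2 were lower at 0.5% (2.71%) and 2 at 1.0% (4.02%). Klf15, a factor that induces amino acid breakdown in fasting, was 9.45, 9.15 and 9.40 at 0.1%, 8.38 and 9.34 at 0.5% and 8.56 and 8.95 at 1.0%, against 9.51, 9.22, 9.40 and 9.28 in control liver. Both 1.0% samples were below control, by 0.60 ± 0.21 on average (limma, adjusted p = 0.747), and at 0.5% the low value was that of replicates 1, 2, 3 and 6. The Klf15 slope was -0.67 ± 0.19 per 1% phloridzin (limma, adjusted p = 0.464). Cebpa, a factor of mature hepatocytes, was 9.47 and 9.95 at 0.5%, against 10.33, 10.41, 10.18 and 10.15 in control liver, a difference of -0.56 ± 0.17 (limma, adjusted p = 0.679), and was 10.73, 10.28 and 10.91 at 0.1%, a difference of 0.37 ± 0.15 (adjusted p = 0.551).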

How the data were processed

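Liver RNA of mice on 4 diets was measured on 24 one-colour Affymetrix arrays. The deposited table holds linear intensities per probe set, and how the authors summarised, background-corrected and scaled them is not given in the sources used here. Array medians ran from 9.49 to 18.0, so the absolute scale is unknown, and levels are compared only after scaling. Signals were quantile-normalized, floored at 8 (5.44% of the values tested) and log2-transformed. The lowest 40% of the 45101 probe sets by mean were left out, after removing 64 controls, which kept 27023. Probe sets were named from the platform annotation, which can be old: 34958 had 1 gene and 932 several, and those with several were not used. Where several probe sets named a gene, the one of highest mean was used, for 13118 genes.

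Arrays with an SD of the log2 difference under 0.08, or whose difference over the 200 most variable genes was under 1.2 times that over the rest, were averaged as 1 RNA. Samples were grouped by diet from the labels. Each comparison was tested in limma 3.58.1 (R 4.3.3) with lmFit and eBayes (trend), two-sided, in 1 fit over 11 RNA samples with 7 residual degrees of freedom and Benjamini-Hochberg adjustment over all genes. Differences are on the floored log2 scale, which understates changes of dim transcripts. Precision is limited by the 11 RNA samples and not by the number of arrays, since repeat arrays of 1 RNA were averaged. The code was tested on simulated data. The genes, lists and tests were chosen with earlier results of these data known. Differences with p are given for members at an unadjusted p under 0.05, at most 8 per comparison, for Tat and Cth throughout, and, chosen after their values were seen, for Hal, Uroc1 (at 0.5%), Kmo, Prodh and, between doses, Arg1 and Haao. Of other pathway genes and regulators, up to 3 per comparison are named by p. Values by sample are also given for the highest-signal member of each branch. Scaling, floor, filter, probe set choice, joining of arrays, variance model and left-out samples were varied.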

Additional observations from a re-analysis of the deposited data

Results flagged for a closer look

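Csad, the cysteine sulfinate decarboxylase, stood apart in 1 control sample. Its log2 signal was 8.47 in control replicate 6, where the other 3 control samples lay at 8.11 to 8.16, and the gap to the nearest sample took 0.867 of the control range. A gap of this size is found by chance in about 1 of 20 groups of samples. The Csad difference at 1.0% phloridzin ranged from -0.77 to -0.65 with each sample left out in turn, and from -1.15 to -0.485 over all 26 settings run. In the RNA with the labels of 2 diets, which entered no comparison, Csad was 8.24.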

How the results depend on the processing

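With RNA samples as units, 0 of the 38 genes were called in every comparison under the scaling, floor, filter, probe set and variance alternatives and with each sample left out in turn, with 1 exception: without joining by fingerprint, 1 gene was called between 1.0% and 0.1%. Taking all 24 arrays as separate samples, which counts repeats of 1 RNA as replicates, called 12 at 0.1%, 6 at 0.5%, 2 at 1.0%, 15 between 0.5% and 0.1%, 9 between 1.0% and 0.1%, 3 between 1.0% and 0.5%, and 2 for the slope. With the replicate number as a block these were 13, 5, 2, 18, 10, 2 and 0. The share of all genes called was not counted with arrays as samples or without joining by fingerprint. These counts are therefore not a result about the 38 genes. The labels do not say that a replicate number pairs samples. Among the 24 arrays, the 36 same-numbered pairs across diets had a median correlation of -0.00441 in their deviations (-0.154 to 0.418, 6 above 0.1). These arrays include repeats of 1 RNA, so the correlations cannot settle whether some numbers pair samples.

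The members' median difference was -0.13 at 0.1% with no scaling, -0.22 (arrays centred on medians) and -0.33 (no scaling) at 0.5%, -0.26 and -0.42 at 1.0%, and -0.30, -0.17 (75th percentile) and -0.44 for the slope. With no scaling, single genes moved by over 1.5 times to -0.48 (Tat), -0.47 (Aass), -0.43 (Cth) and -0.36 (Glud1) at 0.1%, -0.76 (Tat), -0.62 (Cth) and -0.55 (Gpt) at 0.5%, and -1.15 (Csad), -0.66 (Got2) and -0.63 (Cth) at 1.0%. Tdo2 at 0.1% was -0.13 with the 75th percentile, and the slopes of Got2 and Ivd were -0.04 and -0.03 with the mean of their probe sets. Directions also turned. Tat at 1.0% was -0.29 (centred), -0.14 (75th percentile), -0.45 (no scaling), -0.05 (no joining by fingerprint), -0.11 (RNA of 2 diets under both labels), -0.13 (all 24 arrays, with and without the replicate block) and -0.16 to 0.17 with samples left out, and its slope was -0.27 to 0.056 with samples left out. Arg1 at 1.0% was -0.022 (no scaling) and -0.033 (RNA of 2 diets). Got2 at 1.0% was 0.007 with the mean of its probe sets. Without shared probe sets, Uroc1 was -0.49 at 1.0% and its slope -0.18, and the Gpt slope was 0.44, or 0.062 with the mean of probe sets. The cause of these turns was not tested, beyond the change of probe set or samples itself.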

Other observations

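The RNA that carried the labels of 2 diets, on 4 arrays, entered no comparison. In it, Arg1 had a log2 signal of 11.65, Otc 10.96, Kynu 8.82 and Tdo2 12.67, each below all 4 control samples, and Cth was 11.13 and Tat 10.82, also below them. Uroc1 was 9.82, Haao 11.16 and Asl 10.16, each above all 4 control samples. These genes are examples, and further genes of the set lay outside the control range. Hgd (11.65), Aass (10.07) and Glud1 (11.88) were below it, and Bckdha (9.51), Gnmt (13.07) and Nags (8.64) above it. Others, such as Hpd (13.11) and Csad (8.24), lay within it. A single sample can lie outside 4 others by chance, and the share of all genes that did so in this RNA was not counted. Arg1 was lower there than in any of the 11 samples compared, and Kynu and Otc were lower than in all of them but 0.1% replicate 5.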
